A study of Saccharomyces cerevisiae S288C with 8 samples.

Results

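Transfer RNA genes are short genes spread over all the chromosomes of budding yeast, and the 275 nuclear tRNA genes of the R64 annotation, among 6413 nuclear genes in all, were followed here through 4 lists of Cse4 peaks. All genes annotated as tRNA on the nuclear chromosomes were taken, with no choice by signal. A tRNA gene was counted as overlapped when a peak covered 1 bp or more of it, and the distance to the nearest summit (the highest point of a peak) was recorded as well.

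Cse4 is the centromeric histone H3 variant of S. cerevisiae, and Cdc7 is the catalytic subunit of the Dbf4-dependent kinase, DDK. The study asked where Cse4 is located when it is expressed from its own promoter and when it is overexpressed, in wild type and in cdc7-7 strains. ChIP and input DNA were sequenced once from each of 4 strains, so that 8 libraries gave 4 peak lists with no replicates, and no difference between strains below has a replicate check or a p-value. The cells in glucose carried endogenous, tagged Cse4, in a wild type strain and in a strain with the cdc7-7 allele, a temperature-sensitive mutation of CDC7. The other strains, wild type and cdc7-7, carried an integrated GAL-FLAG-CSE4, a tagged copy of CSE4 under a galactose-inducible promoter, and were grown in raffinose/galactose medium for 1.75 hr. Medium and expression therefore changed together between the endogenous and the overexpressing strains, and their effects cannot be told apart. All immunoprecipitations used an anti-FLAG resin, although the genotype of the endogenous strains is labelled CSE4-HA and the paper describes the protein in them as Flag-Cse4.

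RNA polymerase III transcribes tRNA genes from a promoter that lies inside the gene. The factor TFIIIC binds internal elements, the A box and the B box, and places TFIIIB just upstream of the gene, where TFIIIB recruits the polymerase. In yeast, the retrotransposons Ty1 and Ty3 insert upstream of tRNA genes, so the sequence upstream is often a Ty element or a solo long terminal repeat (LTR) that occurs many times in the genome, and tRNA genes are known to act as nucleosome-free sites and, at some loci, as barriers to silent chromatin.

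The tRNA genes were 71 to 133 bp long with a median of 73 bp, and 60 of them had an intron. The 275 genes encoded only 56 distinct mature sequences, and 254 of the genes shared their mature sequence with at least 1 other gene. The sequences of the 8 tRNA genes ranked first by the number of lists that overlap them and then by fold enrichment are shown because they carry the repeated overlap described below. They come from the RefSeq R64 sequence, are written 5′ to 3′ on the strand of the gene, and have the B box match in capitals:
YNCB0012W (tRNA-Leu, chrII:347603-347686, + strand): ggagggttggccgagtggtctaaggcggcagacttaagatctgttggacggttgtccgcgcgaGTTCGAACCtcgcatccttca
YNCE0018W (tRNA-Glu, chrV:354934-355005, + strand): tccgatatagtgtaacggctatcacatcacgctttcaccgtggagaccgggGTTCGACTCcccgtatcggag
YNCO0018W (tRNA-Asn, chrXV:487439-487512, + strand): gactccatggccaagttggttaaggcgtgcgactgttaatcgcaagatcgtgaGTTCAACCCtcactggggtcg
YNCE0005W (tRNA-Ser, chrV:86604-86685, + strand): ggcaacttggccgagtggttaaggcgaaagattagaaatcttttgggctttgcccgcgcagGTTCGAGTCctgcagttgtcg
YNCM0009C (tRNA-Ser, chrXIII:259158-259239, - strand): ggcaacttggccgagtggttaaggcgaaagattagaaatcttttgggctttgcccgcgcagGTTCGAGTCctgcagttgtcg
SUF2 or YNCC0004C (tRNA-Pro, chrIII:123577-123648, - strand): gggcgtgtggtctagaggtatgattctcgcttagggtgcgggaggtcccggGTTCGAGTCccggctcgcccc
SUF4 or YNCG0035W (tRNA-Gly, chrVII:779616-779687, + strand): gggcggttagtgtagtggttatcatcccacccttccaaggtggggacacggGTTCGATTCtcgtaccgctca
YNCB0006W (tRNA-Ser, chrII:227075-227156, + strand): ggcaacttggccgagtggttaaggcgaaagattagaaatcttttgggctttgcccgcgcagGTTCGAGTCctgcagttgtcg

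The 3 tRNA-Ser genes YNCE0005W, YNCM0009C and YNCB0006W are identical over their whole length and lie on 3 chromosomes. A B box was searched as GTTCNANNC (N is any base), which was found in 270 of the 275 tRNA genes (98.2%) and, on either strand, in 2.72% of all nuclear windows of 73 bp. All 42 tRNA genes overlapped in the cdc7-7 GAL-FLAG-CSE4 list and all 23 overlapped in the wild type endogenous list held it. Since nearly every tRNA gene has this motif, its presence does not separate the genes that were overlapped from the others.

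Peaks overlapped 23 tRNA genes in the wild type strain with endogenous Cse4 and 42 in the cdc7-7 GAL-FLAG-CSE4 strain, but only 1 in the cdc7-7 strain with endogenous Cse4 and 1 in wild type GAL-FLAG-CSE4. The lists differ widely in size, with 811 peaks for wild type endogenous Cse4, 183 for cdc7-7 endogenous Cse4, 46 for wild type GAL-FLAG-CSE4 and 2203 for cdc7-7 GAL-FLAG-CSE4, which cover 3.73%, 0.931%, 0.23% and 10.4% of the nuclear genome. Each count was therefore read against the share of all 12070174 nuclear windows of 73 bp that overlap a peak of the same list.

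In wild type cells with endogenous Cse4, 8.36% of the tRNA genes were overlapped (95% Wilson interval, 5.64 to 12.2), against 4.22% of all windows and 5.8% of windows centred outside coding genes. The tRNA share was thus 1.98 times that of all windows and 1.44 times that of the noncoding windows, and the interval lies above the share of all windows but includes that of the noncoding windows. Peaks with a fold enrichment of 2 or more, from the top of this list, overlapped 1 tRNA gene, and its share was 1.1 times that of the windows.

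In the cdc7-7 GAL-FLAG-CSE4 strain, 15.3% of the tRNA genes were overlapped (11.5 to 20.0), a little above the 11.7% of all windows. Windows centred outside coding genes were overlapped in 26.4% of cases, so that tRNA genes were overlapped 1.31 times as often as the genome at large but 0.579 times as often as noncoding DNA. The 26.4% lies above the interval of the tRNA share. Sequence inside tRNA genes is less often unique, with a median of 61.1% of stretches of 50 bases that occur once, against 94.1% over the genome. The part of this difference in the ratios was not tested. The ratio to all windows depended on the overlaps and peaks counted, and was 0.912 when at least 50% of the gene had to be covered (26 genes) and 2.41 with peaks of a fold enrichment of at least 2 (5 genes).

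In each of the 2 short lists, 1 of 275 tRNA genes is 0.364% (0.0642 to 2.03). The window shares were 1.04% for cdc7-7 endogenous Cse4 and 0.257% for wild type GAL-FLAG-CSE4, both inside that interval. The lists do not allow a smaller or larger share at tRNA genes to be told from the window share in these strains.

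**Figure D1:**
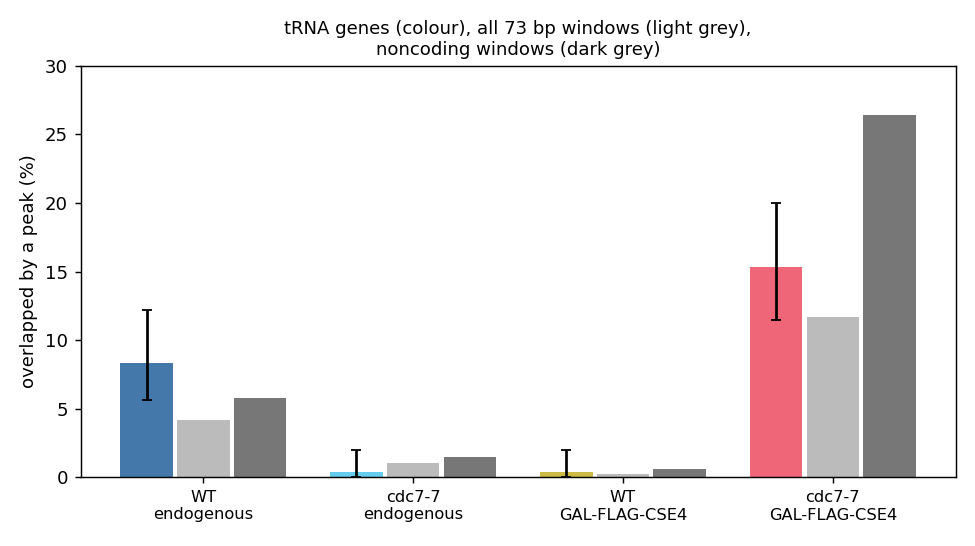
Share of tRNA genes (coloured bars) and of 73 bp windows (all, light grey; centred outside coding genes, dark grey) overlapped by a peak in each list, in percent; the error bars are 95% Wilson intervals over 275 genes. The tRNA bar is above both grey bars for wild type endogenous Cse4 (8.36% against 4.22% and 5.8%) and between them for cdc7-7 GAL-FLAG-CSE4 (15.3% against 11.7% and 26.4%).

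The depth of the libraries moved with these counts within each pair. The background at the centromere peaks, the number of fragments expected there without enrichment, had a median of 200 for wild type endogenous Cse4, 76.2 for cdc7-7 endogenous Cse4, 37.9 for wild type GAL-FLAG-CSE4 and 146 for cdc7-7 GAL-FLAG-CSE4. The lists with the deeper background hold the larger counts. When the pileups (fragment counts at the summits) of cdc7-7 GAL-FLAG-CSE4 were thinned to 26% of their depth, 16.8 of its 42 tRNA genes were expected to keep their peak, against the 1 found in wild type GAL-FLAG-CSE4. Thinning wild type endogenous Cse4 to 38% left 10.2 of 23, against the 1 found in the cdc7-7 strain. The shares kept at tRNA genes, 40% and 44.4%, compare with 33.7% and 49.3% of all peaks outside centromeres in these lists. The counts that remained were above those of the shallower lists. However, the thinned genes were counted because they passed peak calling in the deeper list, which biases the expected counts upward. How much of the difference between the lists goes with depth cannot be told from these counts.

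No tRNA gene was overlapped by a centromere peak in any list. The tRNA gene nearest to a centromere lies 2971 bp away from it, and 6 tRNA genes lie within 10 kb of one.

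The peaks at tRNA genes were of ordinary strength for their lists. In the wild type endogenous list, the 23 peaks had a median fold enrichment of 1.33 (range 1.25 to 2.13), the ratio of fragments at the summit to the local background, against 1.38 for the other 772 peaks outside centromeres. The 42 peaks of the cdc7-7 GAL-FLAG-CSE4 list had a median of 1.54 (range 1.25 to 2.17), against 1.53 for the other 2146 peaks. Behind the median peak stood 292 fragments over a background of 214 in the wild type endogenous list and 230 fragments over 155 in the cdc7-7 GAL-FLAG-CSE4 list. The single peaks of the other lists had 95 fragments over 62.2 (cdc7-7 endogenous Cse4) and 76 over 36.3 (wild type GAL-FLAG-CSE4).

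Although both long lists overlapped tRNA genes, the peaks sat differently on them. In the wild type endogenous list, 18 of 23 tRNA genes were covered over their whole length, 5 held the summit, and the median distance from gene to summit was 69 bp. In the cdc7-7 GAL-FLAG-CSE4 list, 16 of 42 were covered in full, 2 held the summit, and the median distance was 129 bp. Of the summits outside the gene, 12 lay downstream and 6 upstream of the tRNA gene, in its direction of transcription, in the wild type endogenous list, and 35 lay downstream and 5 upstream in the cdc7-7 GAL-FLAG-CSE4 list. The summit lay within 100 bp of the gene for 16 of 23 in the wild type endogenous list and for 14 of 42 in the cdc7-7 GAL-FLAG-CSE4 list. Peaks of the latter mostly reached the gene from its downstream side. Only peaks that overlap a gene were measured, so these distances depend on peak width. Its median was 359 bp in the wild type endogenous list and 512 bp in the cdc7-7 GAL-FLAG-CSE4 list.

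The nearest summits of all 275 tRNA genes, overlapped or not, showed the same contrast. Within 100 bp of a summit lay 6.18% of the tRNA genes for wild type endogenous Cse4, against 1.83% of all 73 bp windows. For cdc7-7 GAL-FLAG-CSE4 it was 5.09% against 4.98%. Within 250 bp the shares were 9.45% against 3.85% for wild type endogenous Cse4, and 21.5% against 10.5% for cdc7-7 GAL-FLAG-CSE4. Most of the excess over all windows was thus within 100 bp for the wild type endogenous list and beyond 100 bp for the cdc7-7 GAL-FLAG-CSE4 list. All windows include coding DNA, and these shares were not taken for noncoding windows, so an excess over other noncoding DNA was not tested. The median distance from a tRNA gene to the nearest summit was 5305 bp for wild type endogenous Cse4 and 1126 bp for cdc7-7 GAL-FLAG-CSE4. It was 20543 bp for cdc7-7 endogenous Cse4 and 57772 bp for wild type GAL-FLAG-CSE4. In the same order, noncoding windows had medians of 5370, 1184, 23654 and 79768 bp, and all windows 5727, 1615, 23859 and 82277 bp. In the long lists the tRNA medians were thus close to those of noncoding windows.

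Lined up at the first base of the tRNA gene and turned in its direction, the peaks of the cdc7-7 GAL-FLAG-CSE4 list were strongly one-sided. This view was chosen after the summit positions had been seen. At 250 bp upstream, 13 of 275 tRNA genes (4.73%) were covered by a peak, at the first base 17 (6.18%), at 100 bp downstream 51 (18.5%) and at 250 bp downstream 92 (33.5%). Coverage was highest at 340 bp downstream, with 100 genes (36.4%), and came back to 28 genes (10.2%) at 1000 bp on either side. Coverage in the wild type endogenous list was highest at 110 bp, with 22 genes (8%), and was 6 genes (2.18%) at 250 bp upstream and 20 (7.27%) at 250 bp downstream. In the short lists at most 4 genes (1.45%, cdc7-7 endogenous Cse4) and 3 genes (1.09%, wild type GAL-FLAG-CSE4) were covered at any 1 offset.

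**Figure D2:**
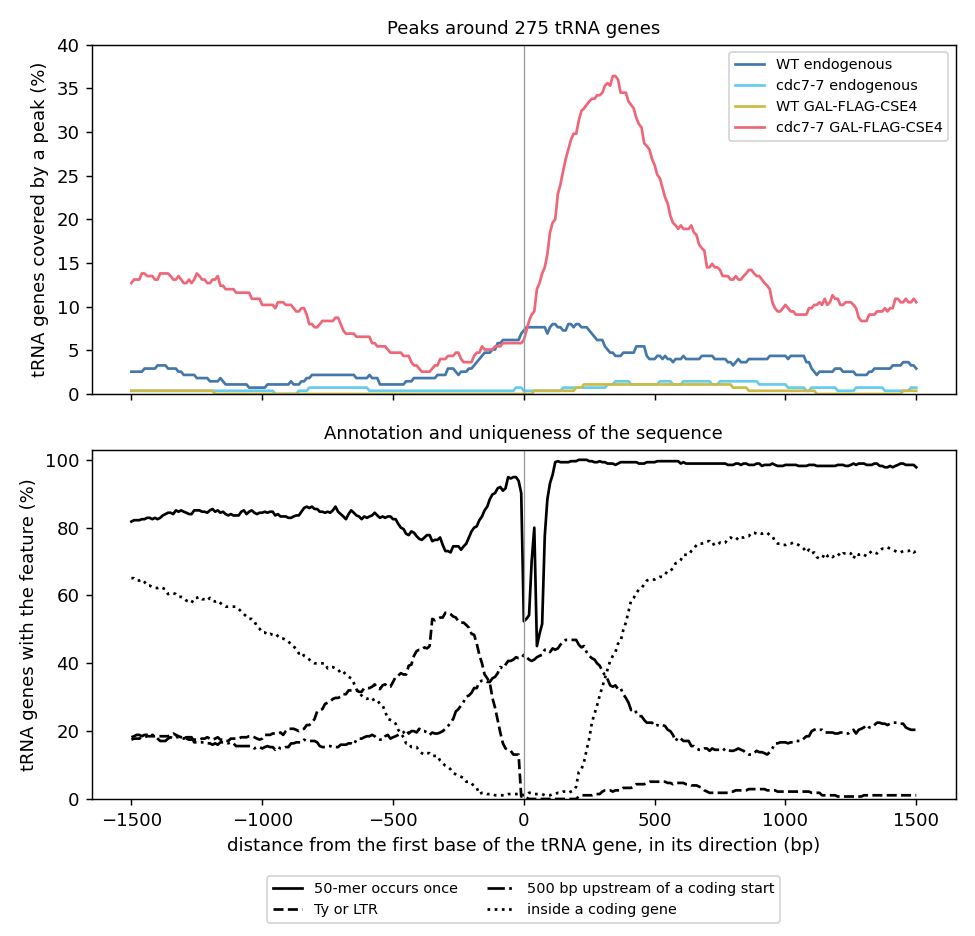
Top, percent of the 275 tRNA genes covered by a peak at each distance from the first base of the gene (bp, in the direction of transcription), for the 4 lists; bottom, percent of the genes whose sequence at that distance occurs once as a 50-mer, belongs to a Ty or LTR, lies within 500 bp upstream of a coding start, or lies inside a coding gene. The cdc7-7 GAL-FLAG-CSE4 curve rises from 6.18% at the first base to 36.4% at 340 bp downstream, while Ty or LTR sequence lies at 52.4% of the genes at 250 bp upstream and at 1.09% at 250 bp downstream.

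The sequences on the sides of tRNA genes differ as well. At 250 bp upstream, 52.4% of the tRNA genes had a Ty or LTR, 74.5% had a 50-mer that occurs once in the genome, and 26.5% lay within 500 bp upstream of a coding gene start, called a promoter here. At 250 bp downstream these shares were 1.09%, 99.6% and 42.2%. The downstream side therefore holds more unique sequence, to which the authors' aligner could assign reads, and more coding gene promoters, where many peaks of this list lie. Whether these features have a part in the one-sided coverage was not tested.

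To see how far the asymmetry moved with these features, the 500 bp on each side were compared. In the cdc7-7 GAL-FLAG-CSE4 list, 29 upstream flanks (10.5%, 7.44 to 14.7) and 112 downstream flanks (40.7%, 35.1 to 46.6) were overlapped, against 19.4% of all nuclear windows of 500 bp. The upstream side lay below the share of all windows and the downstream side above it, and no share of noncoding 500 bp windows was taken. Gene by gene, 92 tRNA genes were overlapped only downstream, 9 only upstream, 20 on both sides and 154 on neither.

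The sides were then compared within classes of flank. Among flanks with a promoter and no Ty or LTR, 14 of 72 upstream (19.4%, 12.0 to 30.0) and 85 of 157 downstream (54.1%, 46.3 to 61.7) were overlapped. Among flanks with neither a promoter nor a Ty or LTR, it was 2 of 34 upstream (5.88%, 1.63 to 19.1) and 25 of 104 downstream (24.0%, 16.8 to 33.1). Among flanks of which 80% or more is unique, it was 24 of 185 upstream (13.0%) and 111 of 271 downstream (41.0%). The interval of the upstream share lay below that of the downstream share in the first and last of these comparisons, and the intervals overlapped in the middle one. These intervals do not take account of flanks that belong to the same tRNA gene. The classes are not alike in every respect, since among flanks with a promoter and no Ty or LTR a coding start lay in 28 of the 72 upstream and in 105 of the 157 downstream.

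Within the same tRNA genes, the ratio of downstream to upstream flanks overlapped was 3.86 over all 275, 3.75 in those with a promoter in both flanks (60 against 16) and 3.21 in those with both flanks 80% or more unique (77 against 24). It was 2.50 in those with no Ty or LTR in either flank (40 against 16). Of the 58 tRNA genes with a promoter in both flanks and no Ty or LTR in either, 11 were overlapped upstream and 22 downstream, a ratio of 2.00. The ratio was thus lowest in the tRNA genes without Ty or LTR sequence. A promoter of 500 bp can span a tRNA gene and so lie in both of its flanks. Of the flanks with a promoter, 49 of 148 upstream and 105 of 159 downstream held a coding start. A promoter in both flanks therefore does not make the sides alike. The parts of promoters, unique sequence and Ty or LTR sequence in the asymmetry were not tested beyond these counts.

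**Figure D3:**
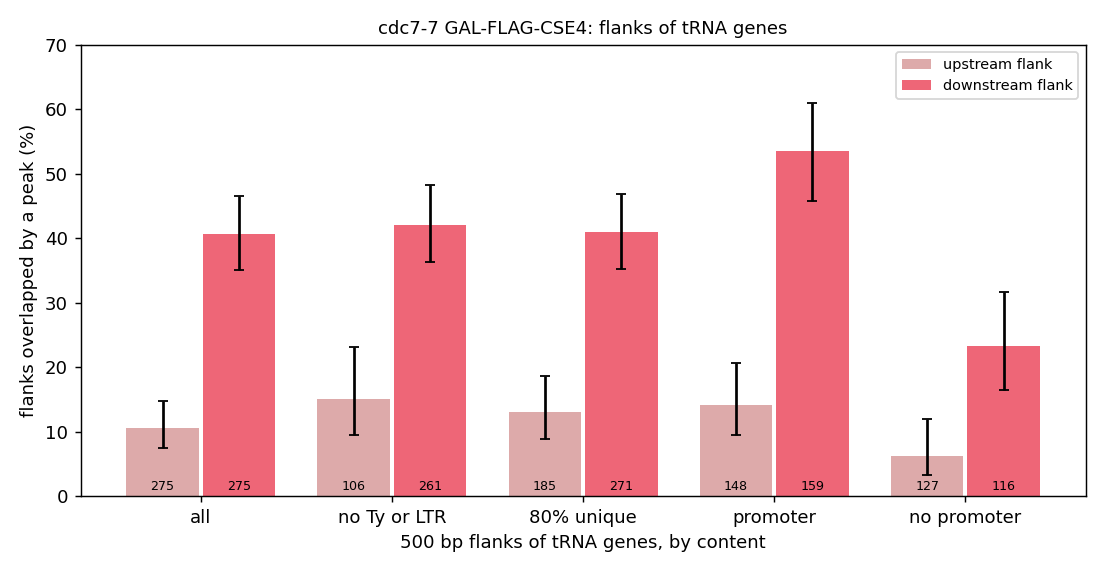
Percent of the 500 bp flanks of tRNA genes overlapped by a peak of the cdc7-7 GAL-FLAG-CSE4 list, upstream (light) and downstream (dark), for all flanks and for flanks with no Ty or LTR, with 80% or more unique sequence, with a promoter and with no promoter; numbers at the base count flanks and error bars are 95% Wilson intervals. The downstream share is the higher in every class, 40.7% against 10.5% over all flanks.

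In the other lists the sides differed less or rested on few genes. In wild type cells with endogenous Cse4, 24 upstream flanks (8.73%, 5.93 to 12.7) and 38 downstream flanks (13.8%, 10.2 to 18.4) were overlapped, against 7.02% of 500 bp windows, and in the 58 tRNA genes with a promoter and no Ty or LTR on both sides the counts were 9 upstream and 7 downstream. For cdc7-7 endogenous Cse4 the flanks overlapped were 2 upstream and 6 downstream, against 1.68% of windows, and for wild type GAL-FLAG-CSE4 they were 0 upstream and 4 downstream, against 0.42% of windows. In all 4 lists the downstream count was the higher over all tRNA genes, and gene by gene the wild type endogenous list overlapped 20 tRNA genes only downstream, 6 only upstream, 18 on both sides and 231 on neither. The intervals of its upstream and downstream shares overlap, but they treat the sides as separate although both belong to the same tRNA genes. Their overlap therefore does not decide whether the sides differ.

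By neighbour, tRNA genes near a coding gene start were overlapped more often in the cdc7-7 GAL-FLAG-CSE4 list. Of the 132 tRNA genes with a coding start within 500 bp, 27 (20.5%, 14.5 to 28.1) were overlapped, and of the other 143, 15 (10.5%, 6.46 to 16.6). The same split of noncoding 73 bp windows gave 34.3% and 12.7%. Near a coding start, tRNA genes were thus overlapped less often than other noncoding DNA with such a neighbour, and away from one about as often. Of the 132, 124 lie upstream of that start, and 7 have a Ty gene as the coding gene.

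The shares of tRNA genes with and without a Ty or LTR within 500 bp lay within their counting intervals of each other, while those of noncoding windows differed more. In the cdc7-7 GAL-FLAG-CSE4 list, 25 of 173 tRNA genes with such a neighbour (14.5%, 9.98 to 20.5) and 17 of 102 without (16.7%, 10.7 to 25.1) were overlapped, while noncoding windows gave 10.8% with and 28.1% without. Split by both neighbours, the list overlapped 13 of 59 tRNA genes with a coding start and no Ty or LTR (22.0%, windows 34.9%), 14 of 73 with both (19.2%, windows 22.0%), 11 of 100 with a Ty or LTR alone (11%, windows 6.09%) and 4 of 43 with neither (9.30%, windows 14.3%). With a coding start and no Ty or LTR, the interval of the tRNA share (13.4 to 34.1) ended just below the window share. With a Ty or LTR alone, the interval (6.25 to 18.6) lay just above it, in the opposite direction. The windows near a Ty or LTR include ones inside such repeated sequence, which lies at the first base of only 0.727% of the tRNA genes. The classes thus differ in unique sequence, and its part in these contrasts was not tested.

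In the wild type endogenous list the order was not that of coding starts. There 9 of 132 tRNA genes near a coding start (6.82%, 3.63 to 12.5) and 14 of 143 others (9.79%, 5.92 to 15.8) were overlapped, with windows at 5.83% and 5.76%. With a Ty or LTR near, 15 of 173 (8.67%, 5.32 to 13.8) were overlapped, against 3.05% of noncoding windows, and without one 8 of 102 (7.84%, 4.03 to 14.7), against 6.10%. Where a Ty or LTR was near, tRNA genes of this list were overlapped more often than the windows of their class, beyond the counting interval. Here too the windows include ones inside Ty or LTR sequence, and the part of unique sequence in the contrast was not tested. A tRNA gene with an intron was overlapped in 3 of 60 cases in this list and in 9 of 60 in the cdc7-7 GAL-FLAG-CSE4 list (5.00% and 15.0%), against 20 and 33 of 215 without an intron (9.30% and 15.3%).

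The position of the summits relative to coding genes set the tRNA peaks of the wild type endogenous list apart. Only 3 of its 23 peaks at tRNA genes (13.0%) had their summit inside a coding gene, against 64.8% of the other peaks outside centromeres. In the cdc7-7 GAL-FLAG-CSE4 list it was 8 of 42 (19%) against 31.1%, and 20 of 42 (47.6%) lay within 500 bp upstream of a coding start, against 58.5% of the others. Since tRNA genes lie between coding genes, with only 5 of the 275 overlapping one, peaks that reach them lie outside coding genes more often by construction, and these shares are given as a description.

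By amino acid, the genes for tRNA-Asp were overlapped most often in the cdc7-7 GAL-FLAG-CSE4 list, 7 of 16 (43.8%, 23.1 to 66.8). They were YNCG0023C, YNCI0010C, YNCJ0006W, YNCJ0012W, YNCJ0013C, YNCJ0026W and YNCN0008C, of which 4 lie on chromosome X. No tRNA-Ile gene of 15 (0%, up to 20.4) and no tRNA-Trp gene of 6 (up to 39.0) was overlapped there. The other amino acids with at least 5 genes ranged from 1 of 18 (5.56%, tRNA-Val) to 3 of 10 (30.0%, tRNA-Asn), and only the interval of tRNA-Asp excluded the 15.3% of all tRNA genes, out of 20 amino acids compared.

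The peaks of the tRNA-Asp genes did not lie in the shared gene sequence alone. Of the 16 tRNA-Asp genes, 15 have the same mature sequence, and 6 of these 15 were overlapped in the cdc7-7 GAL-FLAG-CSE4 list and 2 in the wild type endogenous list. Of the 7 summits, 6 lay from 33 to 419 bp downstream of the gene and 1, at YNCG0023C, on its last base. The 13 identical tRNA-Ile genes had no overlap in the cdc7-7 GAL-FLAG-CSE4 list and 2 in the wild type endogenous list, and the largest family, 16 identical tRNA-Gly genes, had 1 and 0. In the wild type endogenous list the shares of amino acids with at least 5 genes ran from 0 for tRNA-Ala, tRNA-Phe, tRNA-Tyr and tRNA-Val to 2 of 10 for tRNA-Asn (20.0%, 5.67 to 51.0), and the most genes were those of tRNA-Lys (3 of 21) and tRNA-Ser (3 of 19).

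**Figure D4:**
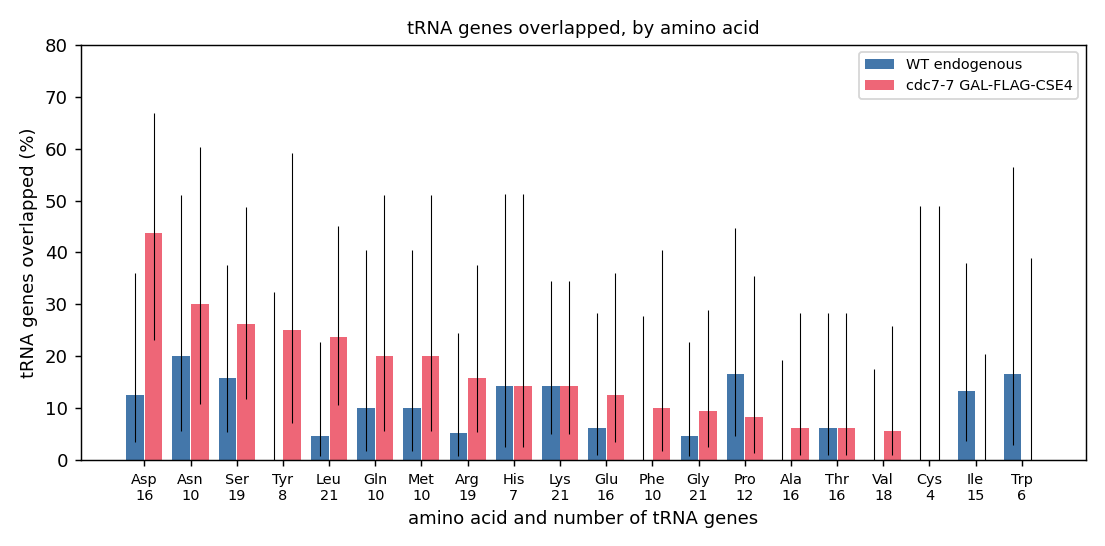
Percent of tRNA genes overlapped, by amino acid, in the wild type endogenous (blue) and the cdc7-7 GAL-FLAG-CSE4 (red) lists, ordered by the latter, with the number of genes under each name and 95% Wilson intervals as thin lines. tRNA-Asp stands highest with 7 of 16 in the cdc7-7 GAL-FLAG-CSE4 list, and tRNA-Ile and tRNA-Trp have none there.

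Most tRNA genes were in no list. Of the 275, 220 were overlapped in 0 lists, 44 in 1, 10 in 2 and 1 in 3. The 11 genes in more than 1 list were all in the lists of wild type endogenous Cse4 and cdc7-7 GAL-FLAG-CSE4, where they were 47.8% of the 23 and 26.2% of the 42. Of the windows overlapped in the wild type endogenous list, 36.6% were also overlapped in the cdc7-7 GAL-FLAG-CSE4 list, and 13.2% in the reverse direction.

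The only tRNA gene in 3 lists was YNCB0012W, a tRNA-Leu gene 193 bp upstream of the start of MRX18 with no Ty or LTR within 500 bp. Its peak had a fold enrichment of 1.55 for wild type endogenous Cse4 (295 fragments over a background of 189), 2.07 for wild type GAL-FLAG-CSE4 (76 over 36.3) and 1.66 for cdc7-7 GAL-FLAG-CSE4 (212 over 127). All 3 summits lay just downstream of the gene, by 48, 90 and 77 bp, between the tRNA gene and MRX18. The cdc7-7 endogenous list had no summit closer than 45518 bp. The 101 bp around the wild type GAL-FLAG-CSE4 summit, on the + strand of R64 with the summit base in capitals, are 65.3% A and T:
YNCB0012W summit (chrII:347726-347826): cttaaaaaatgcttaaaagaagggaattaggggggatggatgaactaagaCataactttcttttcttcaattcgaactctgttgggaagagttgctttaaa
The same stretch holds the summit of the cdc7-7 GAL-FLAG-CSE4 list, 13 bp to the left.

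YNCE0018W, a tRNA-Glu gene 461 bp upstream of UBP9, which encodes a ubiquitin protease, and 17 bp from a Ty3 LTR, had one of the strongest tRNA peaks of the cdc7-7 GAL-FLAG-CSE4 list. The fold enrichment was 2.14 there (342 fragments over 159, summit 175 bp downstream) and 1.29 for wild type endogenous Cse4 (303 over 234, summit 76 bp downstream). Both summits lay between the tRNA gene and UBP9. The 101 bp around the stronger summit, on the + strand with the summit base in capitals, are 63.4% A and T:
YNCE0018W summit (chrV:355130-355230): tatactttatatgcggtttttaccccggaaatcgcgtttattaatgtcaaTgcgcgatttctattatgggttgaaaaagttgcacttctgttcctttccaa

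YNCO0018W, a tRNA-Asn gene 195 bp upstream of YVC1, which encodes a vacuolar cation channel, had its summits on the upstream side in both lists. Its peaks had a fold enrichment of 2.02 for cdc7-7 GAL-FLAG-CSE4 (317 fragments over 157) and 1.42 for wild type endogenous Cse4 (305 over 214). Both summits lay upstream of the tRNA gene, by 285 and 294 bp, on the side of TCB1, and are 9 bp apart.

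The 3 identical tRNA-Ser genes gave peaks that differed with their surroundings. YNCE0005W, 252 bp upstream of MCM3, which encodes a subunit of the replicative helicase, lay under a wild type endogenous peak of 1.83 whose summit was 627 bp upstream, inside HYP2, the gene of a translation factor, and under a cdc7-7 GAL-FLAG-CSE4 peak of 1.55 with its summit 312 bp downstream, inside MCM3. YNCM0009C had 1.30 for wild type endogenous Cse4 and 1.81 for cdc7-7 GAL-FLAG-CSE4, with summits 76 and 241 bp downstream on the side of GIS4. YNCB0006W, near UTP20, which encodes a ribosome assembly factor, had 1.30 with the summit inside the tRNA gene and 1.58 with the summit 86 bp downstream. Identical gene sequence thus went with summits at different distances and on different sides.

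The other 5 genes shared by these lists had fold enrichments of 1.25 to 1.37 for wild type endogenous Cse4 and 1.31 to 1.79 for cdc7-7 GAL-FLAG-CSE4. SUF2 (tRNA-Pro), known from frameshift suppressor mutations, had 1.37 with the summit 78 bp upstream and 1.79 with the summit 542 bp downstream. SUF4 (tRNA-Gly), a frameshift suppressor gene upstream of the thiamine biosynthesis gene THI4, had 1.30 and 1.75, with summits 69 and 111 bp downstream. EMT2 (tRNA-Met), an elongator methionine tRNA gene 1576 bp from the nearest coding start, that of TYE7, had 1.25 and 1.5, with summits 1 and 51 bp downstream. YNCG0023C (tRNA-Asp) had 1.29 with the summit 202 bp upstream and 1.43 with the summit on the gene, and YNCN0017W (tRNA-Asn) had 1.33 with the summit in the gene and 1.31 with the summit 50 bp downstream. In 9 of the 11 shared genes the cdc7-7 GAL-FLAG-CSE4 value was above the wild type endogenous value, the exceptions being YNCE0005W and YNCN0017W. Fold enrichments of lists with different background depend on depth as well as on the signal, and the difference was not tested.

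**Figure D5:**
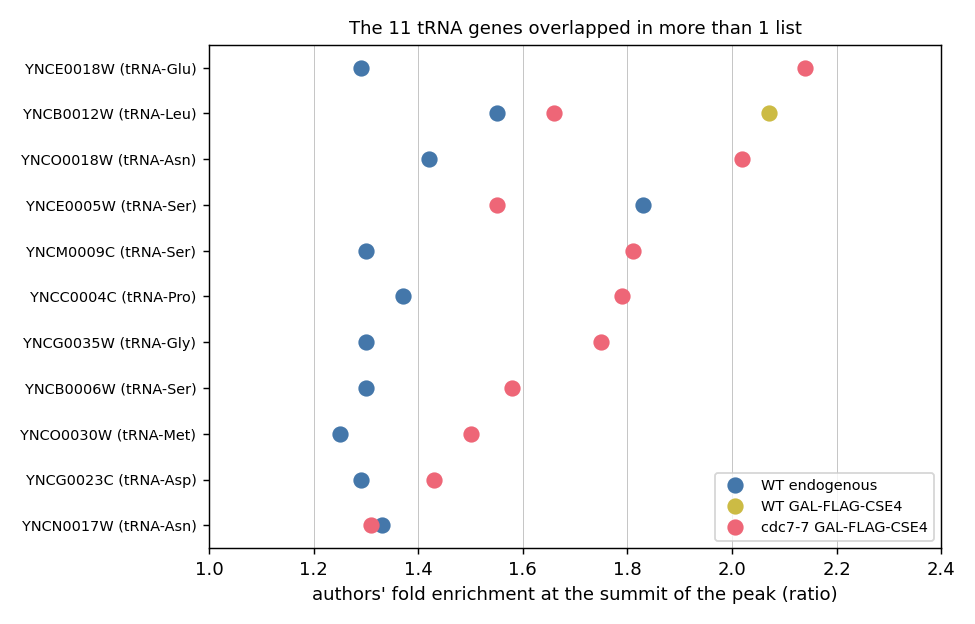
Fold enrichment at the summit (a ratio to the local background, axis from 1) of the peaks at the 11 tRNA genes overlapped in more than 1 list, 1 point for each list that has a peak there. The cdc7-7 GAL-FLAG-CSE4 point (red) lies right of the wild type endogenous point (blue) for 9 genes, and YNCB0012W alone has a wild type GAL-FLAG-CSE4 point, at 2.07.

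The strongest tRNA peaks of the cdc7-7 GAL-FLAG-CSE4 list, those with a fold enrichment above 2, were 5. YNCJ0006W (tRNA-Asp) led with 2.17 (328 fragments over 150), with the summit 419 bp downstream and 80 bp before the start of MDV1, a gene of mitochondrial division. YNCE0018W followed with 2.14. EMT5 (YNCJ0016C, tRNA-Met) had 2.07 in a peak of 1850 bp with the summit 355 bp upstream, inside YJL028W. SUP53 (YNCC0002W, tRNA-Leu), upstream of the leucine biosynthesis gene LEU2, had 2.06, and YNCO0018W had 2.02. None of the 5 summits lay in the tRNA gene itself.

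SUP53 stood apart in depth. Its peak had 1193 fragments over a background of 580, where the median background of the 42 peaks was 155, and its summit lay 543 bp downstream, inside LEU2. The wild type GAL-FLAG-CSE4 list also had a summit near SUP53, 557 bp from the gene, in a peak that did not overlap it. In the endogenous lists the nearest summits lay 12587 bp away in wild type and 10971 bp away in the mutant. A summit near SUP53 was thus present in both strains with GAL-FLAG-CSE4, and in neither endogenous strain. The reason for this pattern and for the high background was not tested.

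In the wild type endogenous list, the strongest tRNA peak belonged to YNCE0010W (tRNA-Arg) with 2.13 (476 fragments over 223), a peak of 1103 bp with its summit 778 bp downstream, inside GCN4, the gene of the activator of amino acid biosynthesis. It was followed by YNCE0005W with 1.83, YNCB0012W with 1.55, YNCE0025C (tRNA-Ile) with 1.51 and YNCI0005W (tRNA-Ile) with 1.44. The summits of the last 2 lay 92 and 290 bp downstream, that of YNCI0005W inside AIR1. In 3 of these 5 genes, the first 2 and YNCI0005W, the summit lay in a coding gene, and these are the only such cases among the 23.

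The tRNA genes that held a summit were 5 in the first of the long lists and 2 in the other. In the wild type endogenous list they were YNCB0006W (tRNA-Ser, 1.30), YNCI0008C (tRNA-Asp, 1.31), YNCL0001W (tRNA-Pro, 1.33), YNCN0017W (tRNA-Asn, 1.33) and YNCO0002W (tRNA-Thr, 1.39). In the cdc7-7 GAL-FLAG-CSE4 list they were YNCG0023C (tRNA-Asp, 1.43) and YNCK0021W (tRNA-Lys, 1.36). The 5 values of the wild type endogenous list lay around the median of 1.33 of its 23 tRNA peaks, and the 2 of the cdc7-7 GAL-FLAG-CSE4 list were below the median of 1.54 of its 42. The median share of 50-mers within a tRNA gene that occur once was 61.1%, against 94.1% over the genome.

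The only tRNA gene of the cdc7-7 endogenous list was YNCP0004C (tRNA-Glu), 188 bp from a Ty1 LTR, with a fold enrichment of 1.52 (95 fragments over 62.2) and the summit 35 bp downstream. It was in no other list.

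The tRNA genes of the cdc7-7 GAL-FLAG-CSE4 list that lay farthest from any coding start were YNCI0004W (tRNA-Glu), at 1740 bp, YNCD0003W (tRNA-Lys), at 1613 bp, and EMT2, at 1576 bp. Their peaks had fold enrichments of 1.72, 1.33 and 1.5, with summits 102, 272 and 51 bp downstream. The summits of YNCI0004W and EMT2 lay outside any coding gene and more than 1500 bp from a start, so these peaks were not at a coding gene promoter, while that of YNCD0003W lay inside MCH1. YNCO0005W (tRNA-Asn), named after its value was seen, lies 210 bp upstream of PSH1, the gene of an E3 ubiquitin ligase of Cse4, and its cdc7-7 GAL-FLAG-CSE4 peak of 1.54 had the summit 139 bp downstream, 71 bp before the PSH1 start.

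Other transcripts of RNA polymerase III were overlapped in the same lists. Of 10 such genes, 4 were overlapped for wild type endogenous Cse4 (40%, 16.8 to 68.7, against 4.22% of 73 bp windows), 2 for cdc7-7 endogenous Cse4 (20%, 5.67 to 51, against 1.04%), 1 for wild type GAL-FLAG-CSE4 (10%, 1.79 to 40.4, against 0.257%) and 5 for cdc7-7 GAL-FLAG-CSE4 (50%, 23.7 to 76.3, against 11.7%). Some of these genes are longer than the windows, 6 of the 10 are 5S repeats, and the intervals treat the genes as independent. In both short lists the overlapped genes were 5S repeats only. They were RDN5-1 and RDN5-6 for cdc7-7 endogenous Cse4 and RDN5-1 for wild type GAL-FLAG-CSE4, each with the summit outside the gene. Both were also among the genes overlapped in the long lists. SCR1, the RNA of the signal recognition particle, had 1.37 for wild type endogenous Cse4 and 1.81 for cdc7-7 GAL-FLAG-CSE4, and RPR1, the RNA of RNase P, had 1.5 and 1.52, each with the summit inside the gene. SNR52, a snoRNA gene, was overlapped for cdc7-7 GAL-FLAG-CSE4 with 2.09, and SNR6, the U6 RNA gene, in no list. The 5S gene RDN5-1 was overlapped in all 4 lists (1.38, 1.52, 2.09 and 1.67), but the 5S genes are repeats in the ribosomal DNA and their values are uncertain.

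The protein genes of the system were not set apart from other coding genes in the longest list. Of 23 genes for TFIIIC, TFIIIB, TFIIIA, subunits of RNA polymerase III and its repressor Maf1, the cdc7-7 GAL-FLAG-CSE4 list overlapped 10 gene bodies (43.5%, 25.6 to 63.2), against 37.9% of all 6002 coding genes, and 11 with the 500 bp upstream of the start included (47.8%), against 51.4%. The wild type endogenous list overlapped 6 (26.1%, 12.5 to 46.5), with or without the 500 bp, against 11.6% of gene bodies and 16.8% with the 500 bp, the first just below the interval and the second inside it. The short lists overlapped 1 gene each, against 2.82% and 3.77% (cdc7-7 endogenous Cse4) and 0.583% and 0.9% (wild type GAL-FLAG-CSE4). That gene was TFC3, a TFIIIC subunit gene next to the centromere of chromosome I, overlapped by the centromere peak in every list. Both RPC17, a polymerase III subunit gene, and the tRNA-Lys gene YNCJ0018W were overlapped by 1 peak of the wild type endogenous list (1.30). This peak reached RPC17 only with its edge, and its summit lay 141 bp before the RPC17 start. RPC17 was also overlapped for cdc7-7 GAL-FLAG-CSE4 (1.46). Of the 8 annotated ETC sites, where TFIIIC binds without the polymerase, 1 was overlapped, ETC2 for cdc7-7 GAL-FLAG-CSE4 (1.66), a share of 12.5% (2.24 to 47.1) against 11.7% of 73 bp windows.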

How the data were processed

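ChIP-seq of Cse4 was available as 1 peak list for each of 4 strains, called by the authors in 1 ChIP library against its input. The authors aligned paired 50-base reads to the S288C reference with Bowtie 1.0.0, dropping reads with more than 1 reportable position, used SAMtools to remove duplicates and MACS to call peaks. The deposited lists give each peak's fold enrichment over the local background (a ratio), and the deposited −log10 p and −log10 q values at its summit. The column of MACS scores was not used.

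Features came from the RefSeq R64 annotation, whose chromosome lengths exceed the last peak ends in the lists. Pileup and background were solved from the fold enrichment, (x + 1)/(background + 1), and the Poisson p, for all but 5 peaks. No list states the number of fragments, so depth is given as this background, and intervals are 95% Wilson intervals that cover counting error only. The background share counts every window of 73 bp (the median tRNA gene) or 500 bp. Unique sequence is a 50-mer found once in the genome. Alternatives changed the peak threshold, the overlap that counts, the windows, the tRNA genes used (genes less than 1000 bp apart counted once, or only those with unique flanks), the neighbour distance and the depth. The tRNA genes, groups and gene lists were chosen with earlier results of these data known, and the flank comparison and the ETC sites were added after the data were seen. The genes named are all those in more than 1 list, the 5 strongest and those holding a summit in each list, and in cdc7-7 GAL-FLAG-CSE4 the 3 farthest from a coding start and the amino acids with most and fewest. With 1 library per strain no test was run. The code, tested on simulated data, ran under Python 3.11.15 with pandas 2.3.3, numpy 2.4.6, statsmodels 0.14.6 and scipy 1.17.1.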

Additional observations from a re-analysis of the deposited data

How the results depend on the processing

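With a fold enrichment of at least 2, tRNA genes overlapped fell to 1 for wild type endogenous Cse4 (1.1 times the window share), 0 for cdc7-7 endogenous Cse4 (0 times) and 5 for cdc7-7 GAL-FLAG-CSE4 (2.41 times). With a −log10 q of at least 5 they were 8 for wild type endogenous Cse4 (1.21 times) and 0 for cdc7-7 endogenous Cse4 (0 times). With at least 50% of the gene covered, cdc7-7 GAL-FLAG-CSE4 had 26 (0.912 times). Summits inside the gene gave 5 for wild type endogenous Cse4 (3.71 times), 2 for cdc7-7 GAL-FLAG-CSE4 (0.546 times) and 0 in both short lists (0 times). Summits within 100 bp gave 3.37 times the window share for wild type endogenous Cse4 and 14 genes for cdc7-7 GAL-FLAG-CSE4, and summits within 250 bp gave 2 genes for cdc7-7 endogenous Cse4 and 2.05 times the window share for cdc7-7 GAL-FLAG-CSE4. Against noncoding windows the ratio for cdc7-7 GAL-FLAG-CSE4 was 0.579. Thinned pileups left 16.8 genes for cdc7-7 GAL-FLAG-CSE4 and 10.2 for wild type endogenous Cse4.

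Leaving out centromere peaks, or counting genes less than 1000 bp apart once, kept the counts at 23, 1, 1 and 42, and tRNA genes with unique flanks alone gave 18, 1, 1 and 34.

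The ratio of downstream to upstream flanks in cdc7-7 GAL-FLAG-CSE4, 3.86, was 2.50 without Ty or LTR in either flank and 2.00 with promoters on both sides as well, but 3.75 with promoters on both sides alone, 3.21 with both flanks 80% or more unique and 3.71 with a −log10 q of at least 5. These settings were chosen after the data were seen. With a fold enrichment of at least 2 it was 3.67, from 11 against 3 flanks. The cause of these changes was not tested. The sides of each tRNA gene were compared within a list as counts only. Between strains no paired analysis was possible because each strain has 1 library, and no test was run.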
